A study of Arabidopsis thaliana with 5 samples.

Results

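The Casparian strip genes of the root endodermis were examined for binding by BLUEJAY (BLJ) and JACKDAW (JKD), a pair of C2H2 zinc finger transcription factors of Arabidopsis thaliana. The group holds 9 genes chosen by locus, MYB36, CASP1, CASP2, CASP4, CASP5, ESB1, PER64, RBOHF and GSO1, out of 27444 protein-coding genes on the nuclear chromosomes. Every bound region within 3000 bp of any of them was taken from each factor's list. Chromatin immunoprecipitation with an antibody against GFP had been done on whole roots of the Columbia ecotype. The BLJ group consisted of 2 libraries from plants expressing BLJ fused to yellow fluorescent protein, in the ground tissue per the labels. The JKD group consisted of 2 libraries from plants expressing the JKD fusion, in the ground tissue and the stem cell organizer (the quiescent centre). A further library came from wild-type roots that carried no fusion and went through the same protocol. All plants grew on standard medium without treatment, and the labels do not name the promoters that drive the fusions.

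The Casparian strip is a belt of lignin laid into the walls between neighbouring endodermal cells, which stops solutes from passing between cells into the vascular cylinder. CASP proteins gather in the plasma membrane as a scaffold that marks where the belt forms, and peroxidases, an NADPH oxidase and the dirigent-like protein ESB1 polymerise lignin there. MYB36 switches on genes of the strip as endodermal cells differentiate, downstream of SHORT-ROOT and SCARECROW, the regulators with which BLJ and JKD act. GSO1, also known as SCHENGEN3, is a receptor kinase that senses whether the belt has closed.

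For each factor 1 list of regions had been made from both replicates, 24229 regions for BLJ and 21985 for JKD. Each region carried an irreproducible discovery rate (IDR, lower where the replicates rank a region alike) and 2 density values, for replicates whose order is unstated, called here the first-listed and the second-listed value. Their medians were 1.60 and 1.38 for BLJ, and 1.09 and 1.49 for JKD. Density is given below as a value and as a percentile within its own list, where the percentile of a region is that of its averaged log2 density. The normalization between lists is not given, so densities were not compared between factors. No values for the wild-type library and no read depths were analysed here, so the regions have no control level beside them and no test between groups was made.

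Regions of both factors lay within 3000 bp of all 9 Casparian strip genes, where BLJ regions lay as near to 89.9% of all protein-coding genes and JKD regions to 87.6%. The regions at these genes numbered 29 for BLJ and 23 for JKD. Of the 29 BLJ regions, 12 overlapped a Casparian strip gene and 17 lay beside one. Of the 23 JKD regions, 10 overlapped and 13 lay beside. A BLJ region overlapped 8 of the 9 genes (71.0% of all genes), CASP5 being the exception, and a JKD region overlapped 7 (65.3% of all genes), all but CASP2 and CASP5. Overlap by both factors was seen at those 7 genes and at 58.4% of all genes. Within 1000 bp, 9 members had a BLJ region (80.8% of all genes) and 8 a JKD region (76.8%). The midpoint of a region lay inside 7 members for BLJ (58.0%) and the same 7 for JKD (51.3%). These windows are crowded, and 20 of the 29 BLJ regions and 16 of the 23 JKD regions touched another protein-coding gene. Counts of regions nearby therefore say little about these genes, and the shape and density of the regions are described gene by gene.

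**Figure D1:**
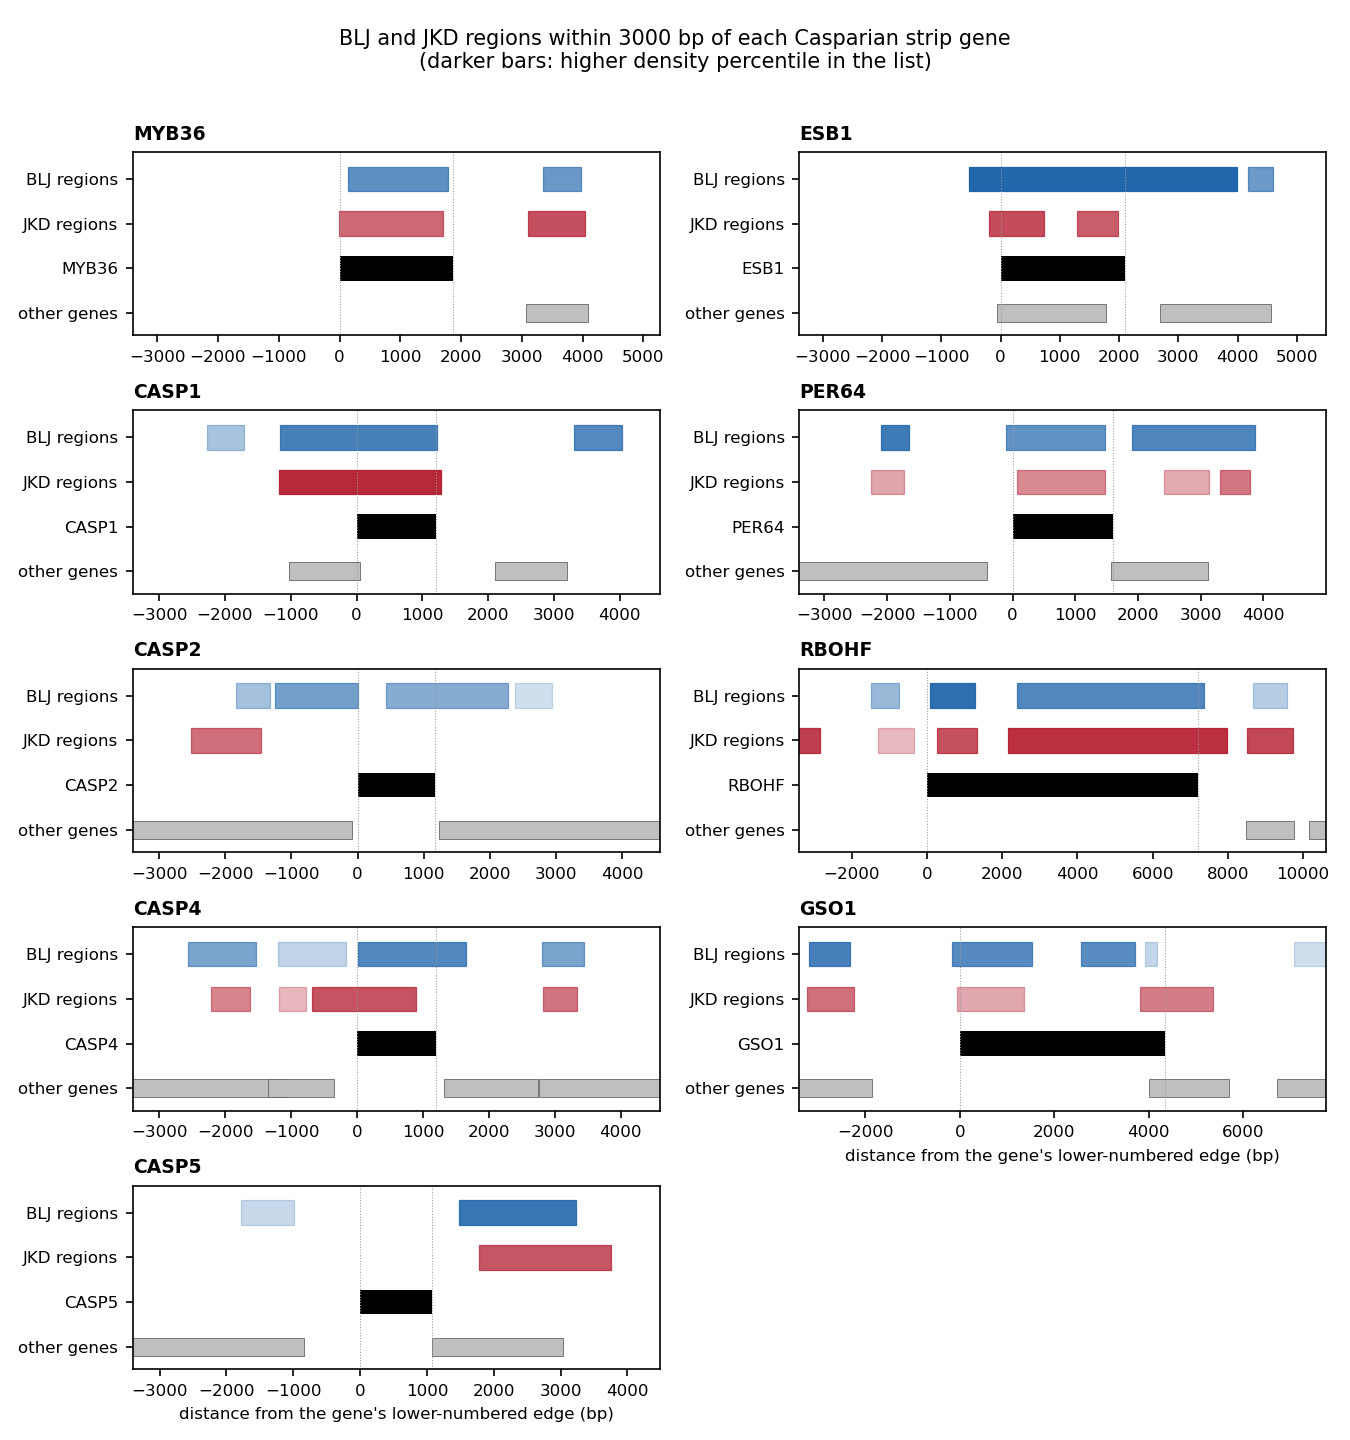
Map of the BLJ regions (blue) and JKD regions (red) within 3000 bp of each of the 9 Casparian strip genes (black), with other protein-coding genes in grey; the horizontal axis is the distance in bp from the lower-numbered edge of the gene, and darker bars have a higher density percentile in their list. Regions of both factors lie over 7 of the genes, CASP2 has BLJ regions alone over it, and CASP5 has none over it.

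MYB36 (AT5G57620), a MYB transcription factor that activates genes of the strip, was covered almost from edge to edge by a single region of each factor. The BLJ region (chromosome 5, 23334904 to 23336549, TAIR9) lay wholly inside the gene and covered 88.2% of it. Its densities were 1.47 and 1.67 and its IDR was 0.281. The JKD region (23334757 to 23336476) covered 91.6% of the gene, with densities of 1.05 and 1.59 and an IDR of 0.132. Both regions were of middling density, at ranks 8324 of 24229 and 9827 of 21985. The 3000 bp on the lower-numbered side of MYB36 held no base of a BLJ region, and JKD regions reached into it by 0.333%. On the other side a further pair lay over the neighbour AT5G57625, with BLJ densities of 1.52 and 1.54 (IDR 0.0971) 1475 bp from MYB36 and JKD densities of 1.21 and 1.50 (IDR 0.0816) 1239 bp from it. MYB36 and GSO1 were the only members at which overlapping BLJ and JKD regions both had an IDR at or below 0.1, and at MYB36 that pair was the one over AT5G57625.

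The CASP genes, which encode the membrane scaffold, differed widely among themselves. CASP1 (AT2G36100) lay wholly inside a region of each factor. The BLJ region (chromosome 2, 15158421 to 15160817) had densities of 1.50 and 1.79 with an IDR of 0.294, and the JKD region (15158417 to 15160869) had 1.13 and 2.00 with an IDR of 0.0887. The lower-numbered ends of these regions lay 4 bp apart. Both regions also spanned the neighbouring gene AT2G36090, so about as much of the BLJ region lay outside CASP1 as within it (50.4% within). The JKD region was the densest of all 23, at a percentile of 91.6 and rank 1846, but this rests on the second-listed value, at a percentile of 95.2, since the first-listed value stood at 62.2. It was the only JKD region within 3000 bp of CASP1, while BLJ had 2 more, with densities of 1.67 and 1.15, and of 1.95 and 1.31, that touched no protein-coding gene and no JKD region.

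CASP4 (AT5G06200) was covered to 98.7% by a BLJ region that spanned 1877150 to 1878786 of chromosome 5 (densities 1.46 and 1.75, IDR 0.148) and ended in the neighbour AT5G06210. The JKD region (1876456 to 1878031, densities 1.18 and 1.52, IDR 0.112) covered 75.4% of the gene and extended the other way, over AT5G06190. The regions of both factors overlapped by 882 bp, so they were offset to opposite sides of the same gene. Another 3 regions of each factor lay over the neighbours, with percentiles from 10.3 to 49.8 for BLJ and from 13.7 to 50.2 for JKD.

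CASP2 (AT3G11550) and CASP5 (AT5G15290) stood apart from the other CASP genes. At CASP2 a BLJ region (chromosome 3, 3638601 to 3640448, densities 1.50 and 1.43, IDR 0.260) covered 63.9% of the gene and ran on into AT3G11560. A second BLJ region (3636922 to 3638185, densities 1.57 and 1.45), over SPINDLY (SPY), a gene of gibberellin signalling, reached 8 bp into CASP2. No JKD region touched CASP2. The only one in the window lay inside SPY, 1462 bp away (3635663 to 3636716), with densities of 1.08 and 1.53. By the averaged value CASP2 had the lowest peak of the members in the BLJ list, since none of its 4 regions passed a percentile of 53.3. By the first-listed value alone MYB36 was lower (34.5, against 44.1 at CASP2), and by the second-listed alone CASP5 was (53.2, against 63.2 at CASP2). At CASP5 neither factor had a region over the gene. A BLJ region (chromosome 5, 4968487 to 4970236, densities 2.14 and 1.39) began 395 bp beyond it and a JKD region (4968783 to 4970763, densities 1.21 and 1.47) began 691 bp beyond it, both over the adjoining gene AT5G15300. A less dense BLJ region (densities 1.47 and 1.13) lay 994 bp away on the other side, over AT5G15280.

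ESB1 (AT2G28670), the dirigent-like protein that shapes lignin deposition in the strip, had the densest BLJ region of all the members. The region (chromosome 2, 12299735 to 12304249) ranked 138 of 24229 and was 4515 bp wide, wider than 98.4% of the list. It covered all of ESB1, the overlapping gene AT2G28671 and part of AT2G28680, so 46.4% of it lay within ESB1. The first-listed density of 3.42 was 2.13 times the list median, whereas the second-listed density of 1.64 was 1.19 times the median. The rank therefore rests more on 1 of the 2 values. In the JKD list ESB1 had 2 regions narrower than the BLJ region, at 12300072 to 12300999 (densities 1.10 and 1.67, IDR 0.186) and 12301555 to 12302241 (densities 1.10 and 1.58, IDR 0.180). Both lay inside the BLJ region, and together they covered 67.9% of the gene at percentiles of 72.6 and 62.3.

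PER64 (AT5G42180), a peroxidase that oxidises lignin monomers at the strip, showed a region of each factor fitted to the gene, as at MYB36. The BLJ region (chromosome 5, 16852521 to 16854108, densities 1.63 and 1.49, IDR 0.125) covered 92.7% of PER64. The JKD region (16852696 to 16854098, densities 1.05 and 1.48, IDR 0.161) covered 87.9%. At their higher-numbered ends they stopped 10 bp apart. The JKD region was weak for its list, at a percentile of 38.2, and PER64 had the lowest JKD peak of all members by the averaged value (47.9, in a region that touched no protein-coding gene). By the second-listed value alone it reached 68.0, above GSO1, CASP5, CASP2 and CASP4. Denser BLJ regions flanked the gene over AT5G42170 (1.91 and 1.49) and AT5G42190 (1.62 and 1.60, IDR 0.0594). By the averaged value, PER64 alone of the 9 members had no region in the denser 50% of the JKD list.

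RBOHF (AT1G64060), the NADPH oxidase that supplies reactive oxygen to the peroxidases, is the longest of the members and carried a wide region of each factor. The BLJ region (chromosome 1, 23772165 to 23777130, densities 1.56 and 1.66, IDR 0.170) was 4966 bp wide and lay wholly inside the JKD region (23771927 to 23777742, densities 1.13 and 1.85, IDR 0.0761), which was 5816 bp wide. They were wider than 98.9% and 99.2% of their lists. A second, narrower pair lay at the lower-numbered end of the gene. There the BLJ region (23769860 to 23771053) had the higher density, 1.69 and 1.96 at a percentile of 92.4, and the JKD region (23770035 to 23771099) had 1.13 and 1.59 with an IDR of 0.0567. The same gap between the narrow and the wide region appeared in both lists. In all, BLJ regions covered 83.4% and JKD regions 84.9% of RBOHF. Of genes of similar length (0.5 to 2 times that of RBOHF), 5.68% were covered as much by BLJ regions and 3.52% by JKD regions. These were the lowest such shares of any member, each set against genes of 0.5 to 2 times its own length. For BLJ the other members ran from 7.52% at ESB1 to 37.5% at CASP2, and CASP5, without cover, stood at 100%. For JKD they ran from 10.5% at CASP1 to 32.5% at GSO1, and CASP2 and CASP5, without cover, stood at 100%. CASP1 in both lists and ESB1 in the BLJ list were covered wholly, so their shares could not have been lower. The shares therefore do not rank the members by how unusual their cover is.

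GSO1 (AT4G20140), the receptor kinase that monitors the barrier, held the most reproducible BLJ region of the group. It lay at the lower-numbered end of the gene (chromosome 4, 10883763 to 10885451, densities 1.61 and 1.57) and its IDR of 0.0143 stood at a percentile of 0.755 of the list. The JKD region there (10883862 to 10885278) had densities of 1.03 and 1.40, an IDR of 0.086 and a percentile of 22.4, so a region placed alike ranked low by density in the JKD list. A BLJ region further inside (10886476 to 10887618, densities 1.80 and 1.39) had no JKD counterpart. At the higher-numbered end a JKD region (10887742 to 10889281, densities 1.19 and 1.34) ran mostly over AT4G20150, and a BLJ region of 262 bp lay within its span. GSO1 was covered to 67.5% by BLJ and to 43.4% by JKD regions.

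Cover of the gene itself was where the members stood furthest from the genes in general. BLJ regions covered over 50% of 8 of the 9 genes, against 41.8% of all protein-coding genes, and JKD regions covered over 50% of 6, against 32.2%. The same 6 genes passed for both factors, where 26.1% of all genes did. With only the regions at an IDR at or below 0.1 kept, 1 of the 9 was covered over 50% by BLJ regions (9.54% of all genes) and 2 by JKD regions (13.5%), so the wide cover lay mostly in regions above that limit. The median share of a gene covered was 88.2% for the members and 38.5% for all genes with BLJ, and 75.4% and 25.0% with JKD. The cover of genes of like length, a comparison added after seeing the data, was lower as well. Among genes of 0.5 to 2 times each member's length, between 31.2% and 46.4% were covered over 50% by BLJ regions and between 17.4% and 38.0% by JKD regions. The flanks differed less from those of other genes. Medians over the 3000 bp on the lower-numbered and the higher-numbered side were 26.5% and 36.8% for the members, beside 26.2% and 26.0% for all genes, with BLJ. With JKD they were 27.2% and 31.0%, beside 20.2% and 20.2%. These are counts over 9 genes chosen with earlier results of these data known, without a test, and the cause of the wide cover was not tested.

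**Figure D2:**
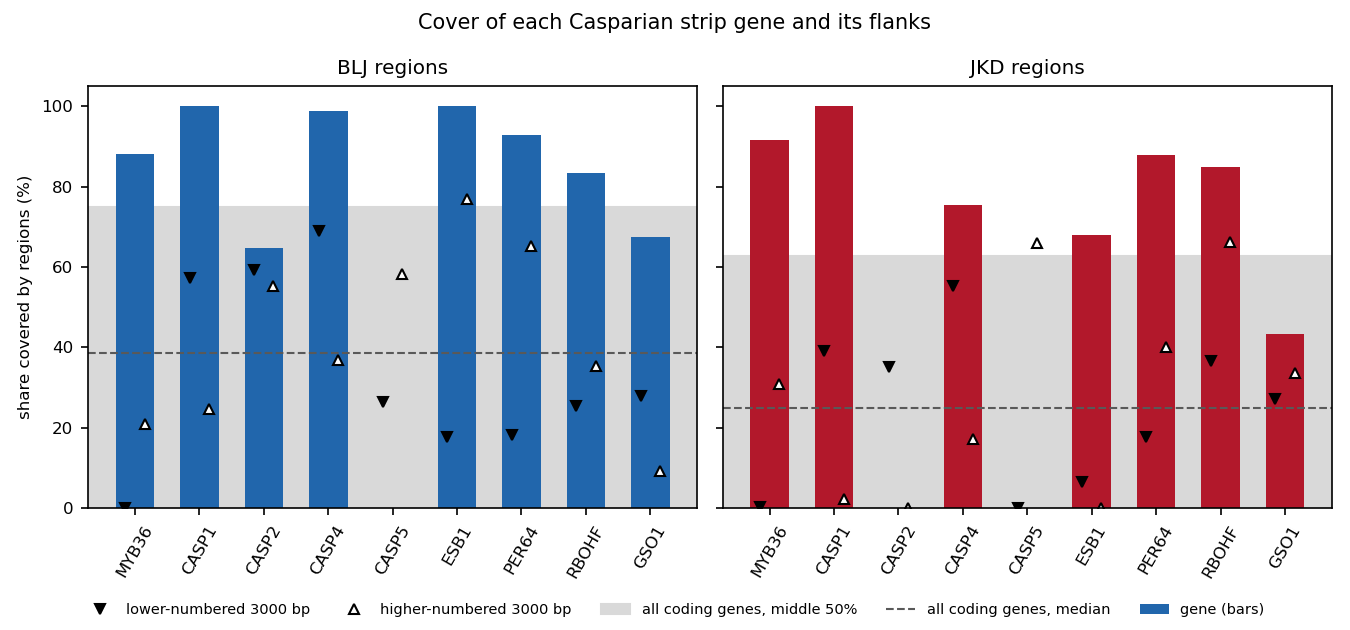
Share of each Casparian strip gene covered by BLJ regions (blue bars, left) and JKD regions (red bars, right), in percent, with triangles for the 3000 bp on either side; the grey band is the middle 50% of all protein-coding genes for the gene itself and the dashed line their median. Bars for 8 genes in the BLJ list and 6 in the JKD list pass 50%, and CASP5 is at 0 in both.

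By the averaged value within 3000 bp, the peak density of the members lay near that of other genes for BLJ and somewhat below it for JKD. The JKD gap was absent within 1000 bp. The densest BLJ region within 3000 bp of a member had a median percentile of 78.5 over the 9 genes and 76.4 over all genes with a region. For JKD the medians were 68.0 and 75.1. With the first-listed value alone the members' medians were 87.7 for BLJ and 78.9 for JKD, beside 75.2 and 74.5 over all genes. With the second-listed alone they were 84.7 and 68.0, beside 77.1 and 74.9. Within 1000 bp the medians by the averaged value were 73.9 for BLJ and 67.3 for JKD, beside 68.5 and 67.4 over all genes. Of the 9 members, 8 had a JKD region that near. Within 3000 bp the members spanned, by the averaged value, from 53.3 at CASP2 to 99.4 at ESB1 in the BLJ list. In the JKD list they spanned from 47.9 at PER64 to 91.6 at CASP1. Regions above the 95th percentile lay near 1 member in the BLJ list, ESB1 (10.7% of all genes), and near 0 members in the JKD list (10.5%). The highest BLJ regions at CASP5, GSO1 and PER64 lay over neighbours, and that at CASP2 lay almost wholly over SPY. In the JKD list the highest regions at MYB36, CASP2, CASP5 and GSO1 lay over neighbours. With the denser 50% of each list, 9 members kept a BLJ region (73.4% of all genes) and 8 a JKD region (69.2%).

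**Figure D3:**
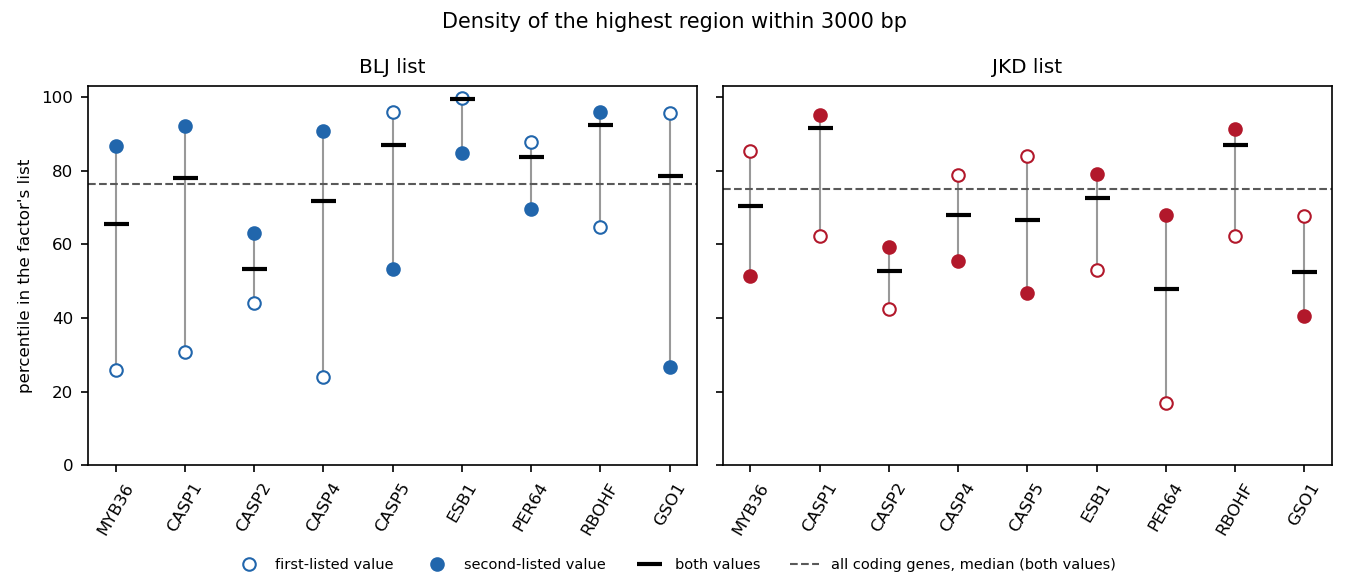
Density percentile of the highest region within 3000 bp of each Casparian strip gene in the BLJ list (left) and the JKD list (right), with open circles for the first-listed value, filled circles for the second-listed value and a bar for both together; the dashed line is the median over all protein-coding genes with a region. ESB1 and RBOHF stand highest for BLJ and CASP1 for JKD, and the circles of MYB36, CASP1, CASP4 and GSO1 lie far apart in the BLJ list.

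The 2 values of a region often disagreed, and in the BLJ list the direction differed between regions over a member and regions beside it. Of the 12 BLJ regions that overlapped a member, 9 ranked higher by the second-listed than by the first-listed value, with median percentiles of 82.1 and 42.9. Of the 17 beside a member, 5 did, with medians of 26.6 and 53.9. At MYB36 the second-listed value stood at a percentile of 86.7 and the first-listed at 25.8, at CASP1 at 92.2 and 30.9, and at CASP4 at 90.8 and 23.9. ESB1 went the other way, with 84.7 and 99.8. Over the whole BLJ list, 51.3% of the regions that overlapped a protein-coding gene ranked higher by the second-listed value, close to the 49.9% of all regions. The share differed more by cover. Of the BLJ regions that covered over 50% of a member 6 of 7 ranked higher by the second-listed value, beside 65.7% of the list's regions that covered over 50% of a gene and 42.6% of its other regions. In the JKD list 8 of 10 overlapping and 7 of 13 flanking regions at the members ranked higher by the second-listed value, beside 49.0% of all regions that overlapped a gene. By cover the JKD counts were 4 of 5 at the members, beside 58.2% of the list's regions that covered over 50% of a gene and 45.9% of the others. Per the deposited sample sheets, replicate 1 of both factors shared a flow cell and replicate 2 of both another, and the part of the flow cell in this was not tested.

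**Figure D4:**
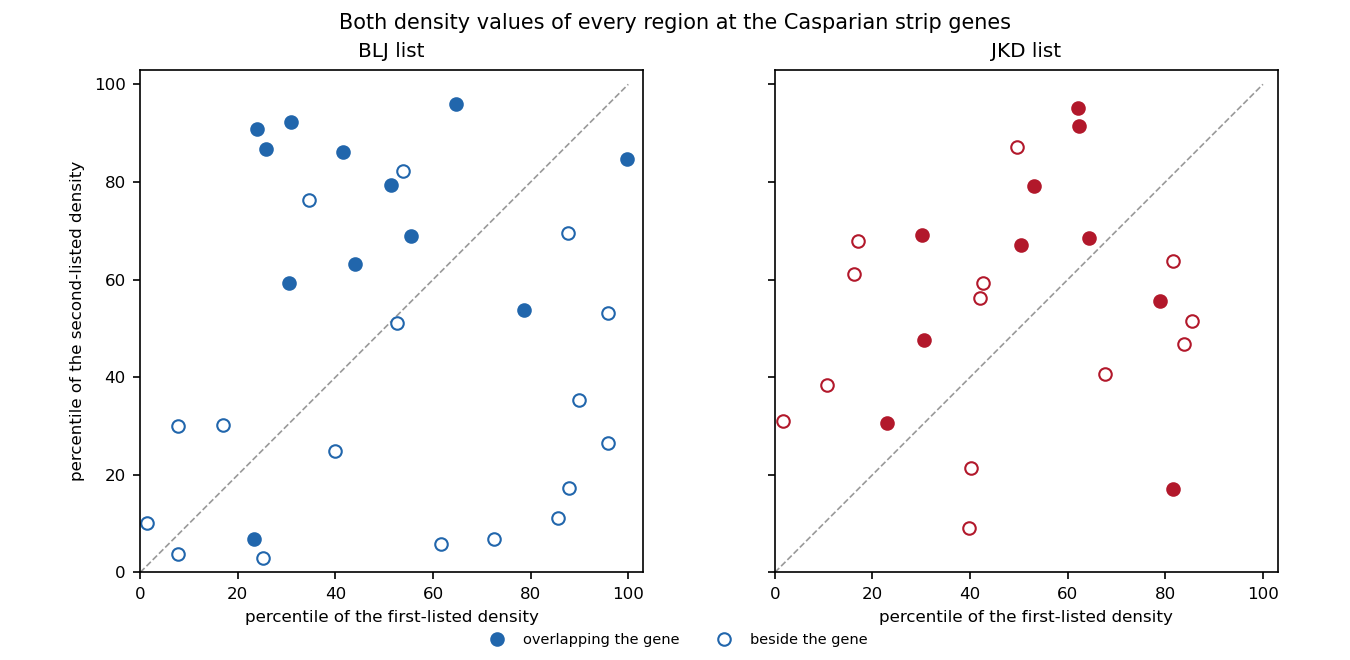
Percentile of the first-listed (horizontal) against the second-listed density (vertical) for all 29 BLJ regions (left) and 23 JKD regions (right) at the Casparian strip genes, filled where a region overlaps the gene and open where it lies beside it; the dashed line marks equal percentiles. In the BLJ list 9 of 12 filled points lie above the line and 12 of 17 open points below it.

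Reproducibility, read from the IDR, was near that of the lists by the median. At a limit of 0.05 the count of members with a region was too small to read as a difference from all genes. The median IDR of the regions at the members was 0.175 for BLJ and 0.159 for JKD, beside list medians of 0.157 and 0.141. At an IDR at or below 0.05, 1 member kept a BLJ region, GSO1, where 17.7% of all genes did, and 1 kept a JKD region, RBOHF, where 32.9% did. At or below 0.1 the counts were 5 members for BLJ (46.4% of all genes) and 4 for JKD (56.2%). The regions over MYB36 (0.281 and 0.132) and CASP1 (0.294 and 0.0887) had BLJ values near the upper end of the list, whose highest IDR was 0.300. CASP2 and CASP5 had no region of either factor at or below 0.1.

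Regions of both factors coincided at these genes, as they did at most protein-coding genes. All 23 JKD regions overlapped a BLJ region by at least 1 bp, as did 77.1% of the JKD list. Of the 29 BLJ regions 20 overlapped a JKD region (69.0%), as did 68.7% of the BLJ list. An overlapping pair lay within 3000 bp of all 9 members and of 80.1% of all genes. With 50% of both regions required to overlap, 7 members had a pair, all but CASP2 and ESB1, and 68.0% of all genes did. A pair lay within 1000 bp of 8 members (67.2% of all genes), and a pair at an IDR at or below 0.1 lay near 2 (18.8%). Both lists may share the wild-type control and came from the same pair of flow cells, so this coincidence is given as positions only.

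The limit of 3000 bp decided few regions. Just inside it lay a JKD region 2843 bp from RBOHF over AT1G64050 (densities 1.09 and 1.77, IDR 0.0270) and a BLJ region 2725 bp from GSO1 (1.36 and 1.14). Just outside lay a BLJ region 3228 bp from RBOHF (1.54 and 1.77) and a JKD region 3195 bp from CASP4 (1.02 and 1.24). A BLJ region 3405 bp from CASP2 (2.24 and 1.50) stood at a percentile of 93.0, so the low BLJ peak of CASP2 holds within the limit only.

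Other genes of the strip and its relatives gave a mixed picture. A list of 57 comprised 23 loci and 34 CASP-like genes. The 23 loci were written from roles known in the strip or as relatives of its genes, such as dirigent relatives of ESB1 and MYB relatives of MYB36. Of these loci 11 carry no symbol in the gene table. The CASP-like genes, taken from the gene table, encode membrane proteins of the same family as the CASP genes. Of the 57, BLJ regions lay within 3000 bp of 56 (89.9% of all genes) and JKD regions of 54 (87.6% of all genes). BLJ regions lay near all 34 CASP-like genes and JKD regions near 32, the exceptions being CASPL1B1 and CASPL4A1. Among the 23 loci, AT4G34600 lacked a BLJ region and MYB37, a relative of MYB36, lacked a JKD region. BLJ regions covered over 50% of 16 of the 34 CASP-like genes (47.1%, beside 41.8% of all genes) and of 18 of the 23 loci. JKD regions covered over 50% of 16 and of 8 (32.2% of all genes). Of the 4 CASP genes examined, 3 were covered over 50% by BLJ regions and 2 by JKD regions.

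The densest of these regions exceeded those of the members in the JKD list, though the highest of 57 genes is set beside the highest of 9. Regions above the 95th percentile lay near 5 of the 57 in the JKD list (8.77%, beside 10.5% of all genes). In the BLJ list they lay near 8 (14.0%, beside 10.7%). CASPL4B1 (AT2G38480) lay wholly inside a BLJ region that spanned 16107809 to 16112014 of chromosome 2 (densities 1.71 and 2.90, percentile 99.0) and a JKD region (16107846 to 16112476, 1.12 and 3.25, percentile 99.4). RBOHD (AT5G47910), an NADPH oxidase of the same family as RBOHF, followed with BLJ densities of 1.76 and 2.67 (percentile 98.7) and JKD densities of 1.19 and 2.53 (percentile 98.5) in regions over 91.2% and 94.5% of the gene. CASPL1F1 and CASPL2B2 came next for BLJ, with regions 940 bp and 2196 bp away, and AT2G39430 and CASPL1F1 for JKD. The JKD region over AT2G39430 (16459586 to 16466266 on chromosome 2), a dirigent relative of ESB1, covered all of the gene and held densities of 1.24 and 2.26 with an IDR of 0.0219.

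**Figure D5:**
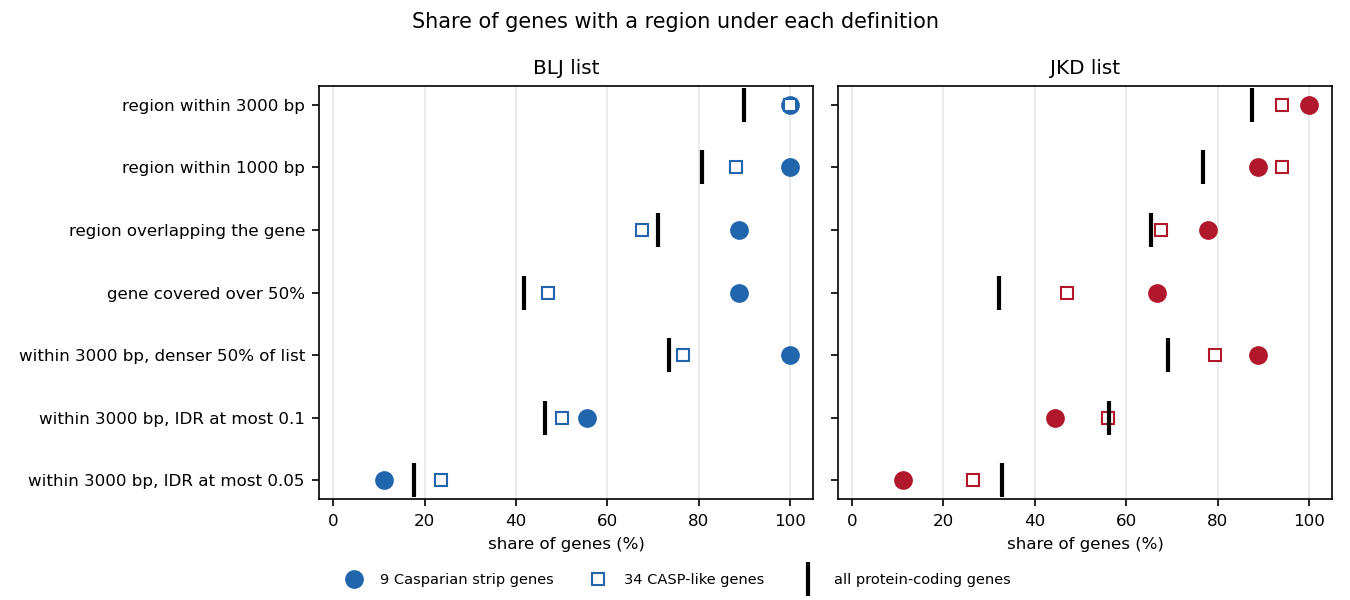
Share of genes, in percent, with a region under each definition named on the vertical axis, in the BLJ list (left) and the JKD list (right), for the 9 Casparian strip genes (filled circles), the 34 CASP-like genes (open squares) and all protein-coding genes (black bars). The widest gap is in genes covered over 50%. At an IDR at or below 0.05 the members stand at 1 of 9 in each list, a count too small to read as a difference from all genes.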

How the data were processed

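ChIP-seq libraries of 50 bp reads were grouped by title (2 BLJ-YFP, 2 JKD-YFP, 1 wild type). Per the submitters' processing notes CASAVA, Bowtie and build TAIR9 were used, with no versions; peak calling, density normalization and the control's use are unstated there. The authors deposited 1 region list per factor, with density signal and IDR per the file headers. The IDR scale runs from 0 to 1, as that of a p-value or q-value does, but the highest deposited value was 0.3 for BLJ and 0.339 for JKD. The IDR served only as a measure of reproducibility. The deposited density scale is the authors' own. Depth per library is unknown.

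Genes came from a RefSeq table of TAIR10.1, whose nuclear chromosomes are those of TAIR9. Cover stepped most steeply at an offset of 0 or 100 bp from gene edges in all 10 combinations of list and chromosome. The table gives no strand, so sides are lower- and higher-numbered. No sequence was used, and the planned search for the motif GACAAA was not run. A region counted as near a gene if at least 1 bp lay within 3000 bp. Overlap and cover counting was tested on simulated data.

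One further gene of the set is not reported here and enters no count of the members. Members and lists were chosen with earlier results of these data known. Named genes were all 9 members, neighbours under the regions described, and from the 57 other genes the 4 densest per factor. Not every region within 3000 bp of a member is described singly, and some neighbours are not named. Exceptions to a count were named after their values were seen. Alternatives changed the window, the list (IDR or denser 50%) and the density value used. Tools were Python 3.11.15, pandas 2.3.3, numpy 2.4.6 and matplotlib 3.10.9.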

Additional observations from a re-analysis of the deposited data

How the results depend on the processing

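For BLJ and for JKD, between 7 and 9 of the 9 Casparian strip genes had a region with a window of 1000 bp, overlap with the gene, midpoints inside the gene (chosen after seeing the data) or the denser 50% of each list. An IDR limit of 0.05 left 1 for BLJ and 1 for JKD (17.7% and 32.9% of all genes), in a list of fewer regions. A limit of 0.1 left 5 and 4 (46.4% and 56.2%), also in a list of fewer regions. Members with overlapping regions of both factors numbered 2 at 0.1 (18.8% of all genes). For the 57 other genes the counts were 14 (BLJ) and 18 (JKD) at 0.05, and 29 and 34 at 0.1, beside the same shares of all genes. By midpoints they were 32 and 32, beside 58.0% and 51.3%. Genes covered over 50% numbered 1 of 9 (BLJ) and 2 (JKD) at an IDR at or below 0.1, beside 9.54% and 13.5% of all genes. With over 80% of the gene required they numbered 6 and 4, beside 21.5% and 16.7%. With the denser 50% they were 7 and 5, beside 23.5% and 19.9% (these 3 settings were chosen after seeing the data). The median percentile of the highest BLJ region was 87.7 with the first-listed value alone, 84.7 with the second-listed and 73.9 within 1000 bp, beside 75.2, 77.1 and 68.5 over all genes. For JKD it was 78.9 with the first-listed value, beside 74.5, and 67.3 within 1000 bp, beside 67.4. The cause of these shifts in percentile was not tested. No paired analysis was possible because the lists hold no column per replicate and no test was made; for the same reason no replicate was left out. Without read depths or control values, a gene outside the lists cannot be called unbound.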

Other observations

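Among the 23 other loci, written from roles in the strip or as relatives of its genes, the lists of both factors differed in cover more than at the members. BLJ regions covered a median of 89.4% of these genes and JKD regions 24.3%, beside 38.5% and 25.0% over all protein-coding genes. LAC3 (AT2G30210), a laccase, was covered to 93.4% by a BLJ region that spanned 12887610 to 12890495 of chromosome 2 (densities 2.02 and 2.08, IDR 0.0485), and to 81.3% by JKD regions. RCI3 (AT1G05260), a peroxidase, was covered to 89.4% by a BLJ region that spanned 1529949 to 1532062 of chromosome 1 (densities 1.93 and 1.92, IDR 0.108), and to 91.4% by JKD regions. These 2 genes, chosen after their values were seen, were thus covered widely by both factors. The difference between the factors was not tested.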
